A study of Mus musculus with 9 samples.

Results

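The genes described here are 35 markers of the oligodendrocyte lineage, from the proliferating precursor to the myelinating cell, followed across the hippocampus of wild-type mice and of a mouse model of Alzheimer's disease. The genes were taken by name from the annotated expression table, and all 35 were found among the 55471 genes counted. Counts above 0 occurred for 33175 of those genes. All 35 passed the filter on low counts, and the lowest count of any of them in any library was 27, for Nkx2-2. They have 6 roles: 5 precursor surface and matrix genes, 6 transcription factors, 3 genes of committed cells that do not yet make myelin, 13 genes of the myelin membrane and its junctions, 6 genes of lipid synthesis, metabolism and stress, and 2 genes of the cytoskeleton.

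The study sequenced hippocampal RNA of females, 9 months old, in 9 libraries, 3 per group. The first group was WT vehicle (C57BL/6J, given blank solvent). The second was 3xTg vehicle, whose genotype is written as APPSwe, tauP301L and a PS1 change, also given blank solvent. The third was 3xTg LP-10d, the same genotype given the compound LP-10d at 10 mg/kg for 1 month. All groups were dosed by mouth 4 times a week. The PS1 change is written M146V in the first 3xTg library and with a number higher by 1 in each following library, up to M151V. In the 3xTg line as generally described, the APP and tau transgenes are driven by a neuronal promoter, and oligodendrocytes are not the cells that the promoter targets. The labels give no background strain for the 3xTg groups, so strain and transgenes cannot be told apart. The series title speaks of modulating 3 kinases without naming them.

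Oligodendrocyte precursors carry the platelet-derived growth factor receptor Pdgfra and the proteoglycan Cspg4 (NG2), and persist in the adult brain as a dividing population. On differentiation they lose these surface proteins, pass through a short stage marked by Gpr17, Bcas1 and Enpp6, switch on the transcription factor Myrf, and wrap axons in a membrane rich in galactolipids and in the proteins Mbp, Mobp, Mog and Mag. In the hippocampus myelinated fibres run mainly in the alveus, the fimbria and the deep layers, which border on the corpus callosum and thalamus. In RNA from whole tissue, fewer cells of a type and less RNA per cell cannot be told apart.

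Total counts ran from 16582086 to 19170969 per library, and the 35 genes took 0.582% (3xTg vehicle replicate 3) to 0.888% (3xTg LP-10d replicate 1) of them. Some libraries stood apart in tissue markers. In 3xTg vehicle replicate 2 the summed level of 13 thalamus and striatum markers was 1386 CPM, against 147 to 356 CPM in the other libraries. That library was the highest for 9 of the 13. WT vehicle replicate 3, at 356 CPM, was the highest for 4 of the 13 and the lowest for 6. The 10 choroid plexus markers summed to 65.6, 4522 and 2478 CPM in the WT vehicle libraries and to 962, 139 and 53.7 CPM in 3xTg vehicle. After LP-10d they summed to 1517, 2723 and 45.3 CPM. In log2 fold change all 10 were lower in 3xTg vehicle than in WT vehicle and higher after LP-10d than in 3xTg vehicle. The medians were -2.71 and 1.80, the directions in which most of the 35 genes also differed. Single libraries varied widely within each group, and for 0 of the 10 were the groups separate in either comparison. The 6 neocortex markers summed to 227 to 277 CPM in WT vehicle, 310 to 419 in 3xTg vehicle and 272 to 335 in 3xTg LP-10d. In WT vehicle replicate 3, mitochondrial genes took 5.04% of counts, against 2.28% to 2.86% elsewhere. Hippocampus markers were present in every library, with the 6 of them summing to 547 CPM in 3xTg vehicle replicate 2 and to 762 to 932 CPM in the others. Of these 6, 5 were lower in 3xTg vehicle and 4 were higher after LP-10d, with medians of -0.51 and 0.15. The part of these differences in the results below was not tested. Results are given with and without single libraries concerned, but those rich in choroid plexus were not left out together.

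All 24 genes with an entry in the RefSeq promoter table (GRCm38.p6) were searched, on both strands of 30 windows of 250 bases before a transcript start, for the letters ACAAAG, to which SOX factors such as Sox10 bind, and for CTGGCAC or CTGGTAC, a core sequence known for Myrf. The SOX letters were in 8 of the 30 windows (26.7%), against 16.5% of all 32851 windows in the table, and the Myrf letters in 5 (16.7%), against 5.93%. These windows belong to 6 and 4 genes. Overlapping windows of Mag hold the same SOX and Myrf letters, which are thus counted more than once. The Myrf letters lay upstream of Cnp, Hapln2, Mag and Mog, and 6 copies of the SOX letters lay upstream of Mobp. A general E-box (CANNTG), the kind of site that Olig1 and Olig2 bind, was in 70.0% of the windows and in 66.2% of all. The searched motifs do not overlap one another in the letters capitalised here. A match describes the letters only. The bases before the annotated gene start are shown for the 4 genes with the Myrf letters and for Mobp, which has the most copies of the SOX letters. Cnp, Mag and Mog were lowest in WT vehicle replicate 3 and highest in 3xTg LP-10d replicate 1, as was Ppp1r14a, which lacks the Myrf letters. Hapln2, which holds them, was also highest in 3xTg LP-10d replicate 1 but lowest in 3xTg LP-10d replicate 3. The 4 genes with the Myrf letters had log2 fold changes near 0 in 3xTg vehicle against WT vehicle. These were 0.00 for Cnp and Hapln2, 0.03 for Mag and -0.01 for Mog. Pdgfra, whose window lacks the letters, was at -0.01. Whether the letters bear on the levels was not tested. Capitals mark the SOX and Myrf letters on either strand, and the sequences read 5′ to 3′ along the gene:
Cnp (chr11:100574689-100574903, plus strand): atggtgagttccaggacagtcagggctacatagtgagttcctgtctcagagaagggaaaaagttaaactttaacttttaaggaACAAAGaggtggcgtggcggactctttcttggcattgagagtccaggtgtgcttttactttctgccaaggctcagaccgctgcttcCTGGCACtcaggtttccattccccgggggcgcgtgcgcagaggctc
Hapln2 (chr3:88027584-88027761, minus strand): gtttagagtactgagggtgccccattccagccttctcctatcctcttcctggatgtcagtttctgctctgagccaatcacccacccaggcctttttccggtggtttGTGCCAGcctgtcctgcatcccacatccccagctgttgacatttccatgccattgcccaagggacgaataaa
Mag (chr7:30914923-30915172, minus strand): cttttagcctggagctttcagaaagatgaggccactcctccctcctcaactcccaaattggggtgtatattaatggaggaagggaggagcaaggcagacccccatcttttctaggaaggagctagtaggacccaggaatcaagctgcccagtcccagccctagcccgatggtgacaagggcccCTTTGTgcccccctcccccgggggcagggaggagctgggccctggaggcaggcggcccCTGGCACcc
Mog (chr17:37023399-37023648, minus strand): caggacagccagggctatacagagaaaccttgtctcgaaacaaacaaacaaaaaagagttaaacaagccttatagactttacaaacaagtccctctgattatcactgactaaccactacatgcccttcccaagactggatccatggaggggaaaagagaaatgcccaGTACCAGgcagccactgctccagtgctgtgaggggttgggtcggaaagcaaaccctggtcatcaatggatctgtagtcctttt
Mobp (chr9:120149492-120149706, plus strand): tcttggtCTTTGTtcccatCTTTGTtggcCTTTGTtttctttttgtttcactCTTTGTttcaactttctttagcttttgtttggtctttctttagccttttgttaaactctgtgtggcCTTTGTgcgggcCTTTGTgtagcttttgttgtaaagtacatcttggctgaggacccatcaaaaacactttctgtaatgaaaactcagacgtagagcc

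Levels of different genes are compared per transcript length, as FPKM. Mbp, the basic protein that compacts myelin, was the most abundant of the 35, at a mean of 427 FPKM over the 9 libraries. Mobp followed at 136, the iron carrier Trf at 116, the myelin enzyme Cnp at 95.4 and the carbonic anhydrase Car2 at 86.4 FPKM. Of the transcription factors Olig1 stood highest, at 67.1 FPKM, above Sox10 at 25.1, Myrf at 14.4, Olig2 at 13.3 and Nkx6-2 at 7.0. Precursor genes were low, with Cacng4 at 7.10, Pdgfra at 5.27, Cspg4 at 3.68, Lhfpl3 at 2.82 and Vcan at 1.25 FPKM. Among genes of committed cells, Bcas1 was at 30.8, Gpr17 at 11.0 and Enpp6 at 1.24 FPKM, and Nkx2-2 was the lowest of all at 0.758 FPKM. The remaining myelin and metabolic genes lay between 75.5 FPKM for Cldn11 and 1.87 FPKM for Aspa. All values from here on are CPM (counts scaled to a common library size), compared only within a gene.

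The pattern over single libraries is shown first, because each group holds only 3. 3xTg LP-10d replicate 1 was the highest of all 9 libraries for 16 of the 35 genes and WT vehicle replicate 3 for 11, while 3xTg vehicle replicate 3 was the lowest for 21 and among the lowest pair for 30. Averaged over the 35 genes, the deviation of log2(CPM + 0.5) from the 9-library mean was 0.04, 0.17 and 0.10 in the WT vehicle libraries. It was -0.04, -0.01 and -0.27 in 3xTg vehicle and 0.22, -0.09 and -0.10 in 3xTg LP-10d. The WT vehicle libraries thus all lay above the 3xTg vehicle libraries in this average, by little for WT vehicle replicate 1, and the LP-10d libraries overlapped both groups.

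**Figure D1:**
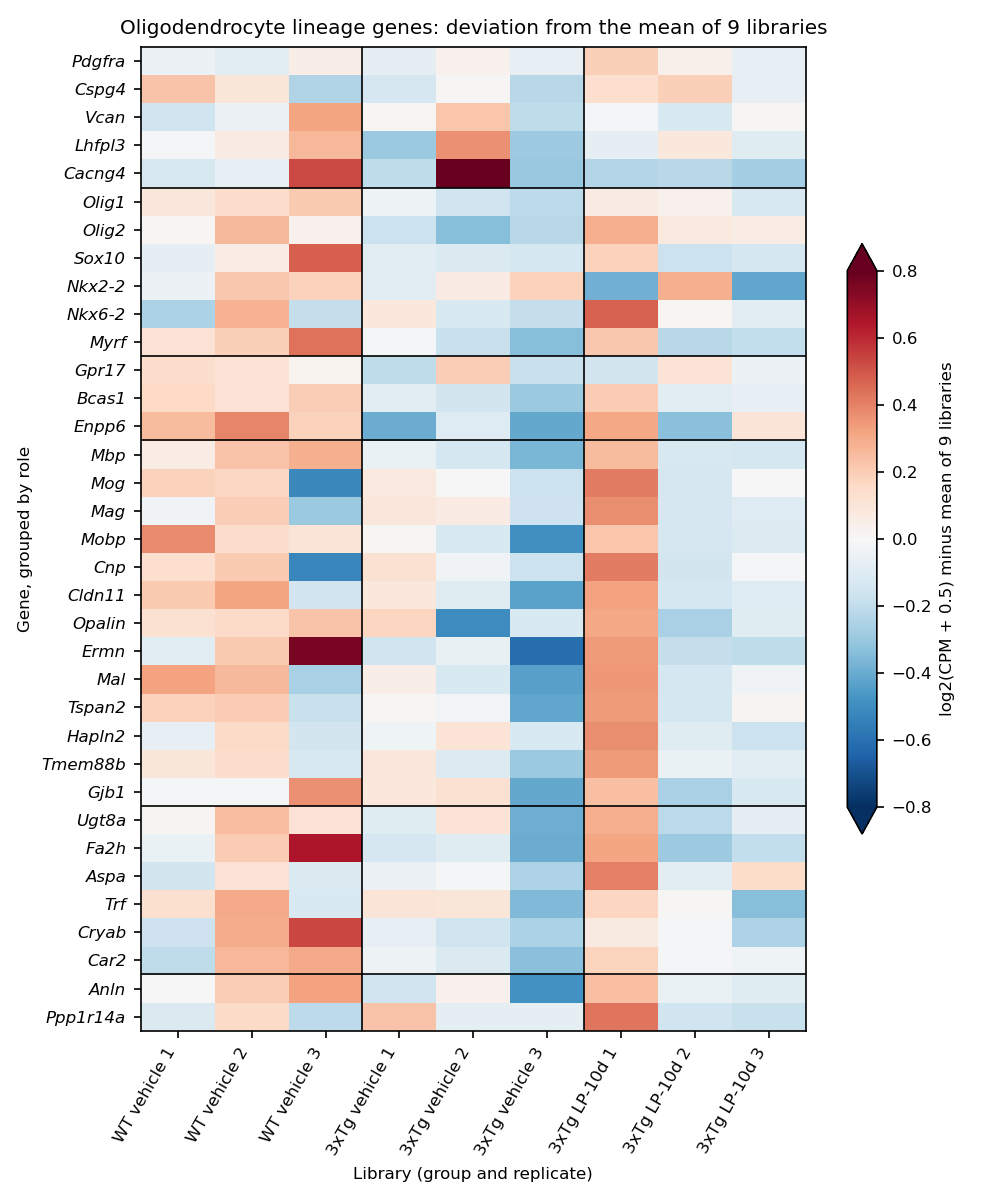
Deviation of log2(CPM + 0.5) from the mean of the 9 libraries for each of the 35 genes (rows, grouped by role) in each library (columns, grouped by treatment). The columns of 3xTg LP-10d replicate 1 (mostly red) and 3xTg vehicle replicate 3 (mostly blue) stand out, and WT vehicle replicate 3 mixes strong red and strong blue.

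The first comparison, 3xTg vehicle against WT vehicle, asks how the lineage differs in the disease model. Of the 35 genes, 30 were lower in 3xTg vehicle, with a median log2 fold change of -0.21 (0.863-fold), against a median of 0.00, 49.8% of genes lower and 50.2% higher over all 17396 genes tested. With edgeR's quasi-likelihood test, 0 of the 35 passed an adjusted p of 0.05, against 0.00575% of all genes. At an unadjusted p under 0.05, 11 of the 35 (31.4%) were lower and 0 were higher, against 7.08% of all genes lower and 7.00% higher. In 9 of the 35 (25.7%) every 3xTg vehicle library lay below every WT vehicle library, against 7.99% of all genes, and in 0 did every 3xTg vehicle library lie above, against 9.38%. These 9 were Olig1, Olig2, Sox10, Myrf, Bcas1, Enpp6, Mbp, Mobp and Fa2h. All of them but Sox10, with Ermn, Cryab and Anln, were the 11 at an unadjusted p under 0.05. DESeq2 called 1.99% of all genes and 0 of the 35. At an unadjusted p under 0.05 it had 12 of the 35 lower (34.3%), against 3.64% of all genes, which it ran without the filter on low counts. limma-voom called 0 of the 35, with 11 lower at such a p (31.4%), against 6.16% of all genes. The smallest adjusted p of any of the 35 in edgeR was 0.213, for Olig1, and the smallest under any setting was 0.0626, for the same gene with DESeq2.

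Precursor surface and matrix genes showed the smallest differences between these groups, with a median log2 fold change of -0.03 over the 5. Pdgfra, the receptor through which growth factor maintains precursors, was at 51.1, 49.8 and 54.8 CPM in WT vehicle. It was at 50.2, 54.1 and 50.5 CPM in 3xTg vehicle. The libraries of the groups interleaved, and the log2 fold change was -0.01 ± 0.09 (SE; edgeR adjusted p = 0.977).

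Cspg4, the NG2 proteoglycan, was lower in 3xTg vehicle by less than the spread of WT vehicle (45 ± 7.36 and 40.4 ± 3.33 CPM, SD, n = 3 each). Its log2 fold change was -0.15 ± 0.13. Cspg4 also marks pericytes, whose 5 markers had a median log2 fold change of 0.11 in the same comparison, and Pdgfra also marks fibroblasts, whose 5 markers had one of -0.29. Vcan, a matrix proteoglycan, and Lhfpl3, a membrane protein enriched in precursors, had log2 fold changes of -0.03 ± 0.15 and -0.16 ± 0.19. Cacng4, an AMPA receptor auxiliary subunit, was at 22.2, 23.2 and 35.4 CPM in the WT libraries and at 21, 46.1 and 19.7 CPM in 3xTg vehicle. Its high 3xTg value came from replicate 2, the library with the highest sum of striatal and thalamic markers. With that library left out, the median of the 5 precursor genes was -0.22.

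All 6 transcription factors were lower in 3xTg vehicle, with a median log2 fold change of -0.29, and for 4 of them the groups did not overlap. Olig1, a basic helix-loop-helix factor needed for maturation and repair of myelin, was at 154, 160 and 167 CPM in WT vehicle. It was at 141, 130 and 125 CPM in 3xTg vehicle. On the log2 scale the fold change was -0.28 ± 0.08, with an edgeR adjusted p of 0.213. Every 3xTg vehicle library was lower than every WT vehicle library.

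Olig2, which specifies the lineage and stays on in precursors and mature cells alike, was at 33.6, 39.9 and 34.1 CPM in the WT libraries and at 29.6, 26.2 and 28.5 CPM in 3xTg vehicle. The groups did not overlap, and the log2 fold change was -0.35 ± 0.10 (edgeR adjusted p = 0.218). Myrf, the membrane-bound factor that switches on myelin genes, was at 132, 140 and 165 CPM in the WT libraries and at 121, 108 and 96.6 CPM in 3xTg vehicle, with a log2 fold change of -0.43 ± 0.14 (edgeR adjusted p = 0.247).

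Sox10, which acts with Myrf and Olig2 on myelin genes, was at 72.2, 79.6 and 106 CPM in WT vehicle. It was at 72.0, 70.3 and 69.2 CPM in 3xTg vehicle, so the groups did not overlap but the nearest libraries were almost equal. Its log2 fold change was -0.29 ± 0.14, and over the alternatives it ran from -0.40 to -0.11. Nkx2-2 and Nkx6-2, homeobox factors of differentiation and of axon contact, had log2 fold changes of -0.08 ± 0.25 and -0.04 ± 0.19. Exons of both overlap a gene on the opposite strand. Nkx2-2os had up to 66.7% of the count of Nkx2-2, and Inpp5a had 624 to 1096 counts beside 192 to 327 for Nkx6-2, and without a stated strand setting such reads cannot be told apart. The same holds for Cnp and Dnajc7, which had up to 39.4% of its count, and Trf shares 2108 exonic bases with Gm20425 on its own strand.

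**Figure D2:**
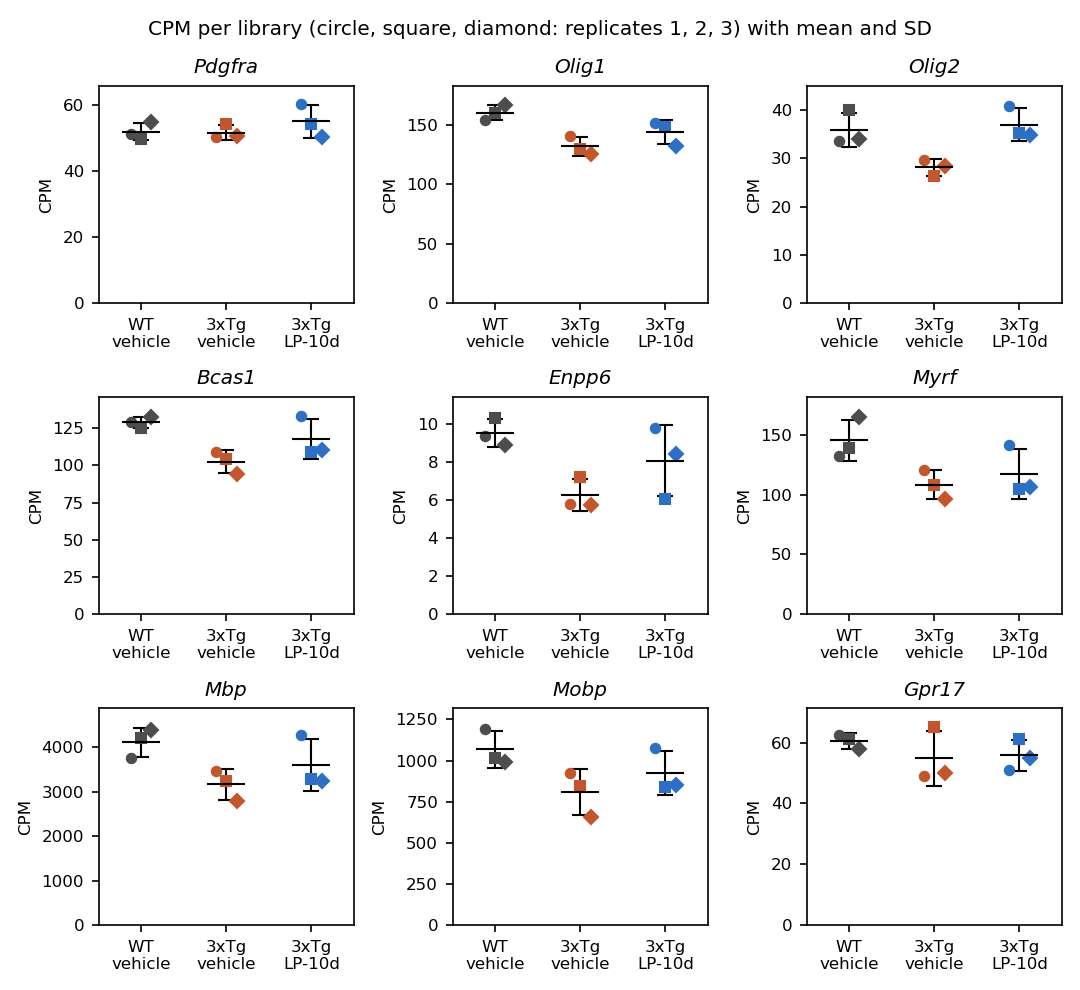
CPM in every library for 9 of the genes, with group means and SD (horizontal and vertical bars, n = 3); circles, squares and diamonds are replicates 1, 2 and 3. Olig1, Olig2, Bcas1, Enpp6, Myrf, Mbp and Mobp show 3xTg vehicle wholly below WT vehicle, and Pdgfra and Gpr17 show overlapping groups.

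Genes of committed cells on the way to myelination were lower in 3xTg vehicle in 3 of 3 cases. Enpp6, a choline phosphodiesterase that marks newly formed oligodendrocytes, had the largest difference of the 35 genes in this comparison. It was at 9.37, 10.3 and 8.90 CPM in the WT libraries and at 5.79, 7.21 and 5.72 CPM in 3xTg vehicle. This is a log2 fold change of -0.61 ± 0.18, or 0.654-fold (edgeR adjusted p = 0.219). All 3 WT vehicle libraries lay above all 3 of 3xTg vehicle, and over all alternatives the log2 fold change ran from -0.78 to -0.31.

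Bcas1, a membrane-associated protein of early and actively myelinating cells, was at 129, 125 and 133 CPM in the WT libraries and at 109, 105 and 94.3 CPM in 3xTg vehicle. The groups were clearly separate, with a log2 fold change of -0.33 ± 0.10 (edgeR adjusted p = 0.214). Gpr17, a receptor that holds precursors short of maturation, was at 62.6, 61.1 and 57.7 CPM in the WT libraries and at 49.1, 65.1 and 50.0 CPM in 3xTg vehicle. Its log2 fold change was -0.14 ± 0.12. Replicate 2 of 3xTg vehicle was the highest of the 9 libraries for Gpr17 and the other 2 of that group were the lowest, and without replicate 2 the log2 fold change was -0.29. Lims2, on the opposite strand, overlaps Gpr17 and had up to 32.6% of its count.

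Of the 13 genes of the myelin membrane and junctions, 10 were lower in 3xTg vehicle, with a median log2 fold change of -0.21. The differences were uneven: Ermn, Mobp and Mbp were the lowest relative to WT vehicle, and Mog, Mag, Cnp and Hapln2 were near 0. Mbp was at 3747, 4204 and 4380 CPM in the WT libraries and at 3466, 3250 and 2786 CPM in 3xTg vehicle, a log2 fold change of -0.38 ± 0.14 (edgeR adjusted p = 0.298). Mobp, an abundant protein of the compact membrane, was at 1195, 1017 and 991 CPM against 927, 846 and 654 CPM, a log2 fold change of -0.40 ± 0.15 (edgeR adjusted p = 0.296). For both the groups did not overlap, and replicate 3 was the lowest library.

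Mog, an immunoglobulin-like protein of the outer myelin surface, was at 62.3, 61.7 and 38.2 CPM in the WT libraries and at 58.0, 54.7 and 48.6 CPM in 3xTg vehicle. WT vehicle replicates 1 and 2 were above all of 3xTg vehicle and replicate 3 was below all of it, and the log2 fold change was -0.01 ± 0.19. Without WT vehicle replicate 3 it was -0.21. The WT vehicle libraries held Mag, an adhesion protein facing the axon, at 282, 329 and 234 CPM. Cnp was at 375, 395 and 238 CPM there, and WT vehicle replicate 3 was the lowest of all 9 libraries for both.

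The log2 fold changes of Mag, Cnp and Hapln2, a link protein of the nodes of Ranvier, were 0.03 ± 0.16, 0.00 ± 0.20 and 0.00 ± 0.15. Ermn, a cytoskeletal protein of mature oligodendrocytes, lay at the other end with -0.60 ± 0.23, from 38.8, 47.7 and 70.2 CPM in WT vehicle to 36.9, 39.6 and 27.1 CPM in 3xTg vehicle. Here WT vehicle replicate 3 was the highest of the 9 libraries. Cldn11, which forms the tight junctions of myelin, Opalin, a glycoprotein of mature oligodendrocytes, Mal, a proteolipid of membrane sorting, the tetraspanin Tspan2, the membrane protein Tmem88b and Gjb1, the connexin 32 gap junction, had log2 fold changes between -0.30 (Opalin) and -0.14 (Tmem88b). Each of these 6 had an edgeR p above 0.05.

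All 6 genes of lipid synthesis, metabolism and stress were lower in 3xTg vehicle, with a median of -0.27. Fa2h, which hydroxylates the fatty acids of myelin galactolipids, was at 50.5, 60.5 and 82.2 CPM in the WT libraries and at 47.8, 49.0 and 39.6 CPM in 3xTg vehicle. The groups did not overlap, and the log2 fold change was -0.50 ± 0.20 (edgeR adjusted p = 0.314). Cryab, a small heat shock protein of mature oligodendrocytes and astrocytes, was at 73.3, 101 and 119 CPM and at 78.6, 73.4 and 69.0 CPM, so that WT vehicle replicate 1 lay among the 3xTg vehicle libraries.

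The log2 fold change of Cryab was -0.41 ± 0.16. For both Fa2h and Cryab the highest library was WT vehicle replicate 3. Car2 was at 228 ± 41.7 and 186 ± 19 CPM (SD, n = 3 each), Ugt8a, which makes galactosylceramide, at 37.4 ± 2.99 and 31.5 ± 5.49, and Trf at 411 ± 59.8 and 371 ± 64.0, in WT vehicle and 3xTg vehicle. Aspa, which releases acetate for lipid synthesis from N-acetylaspartate, differed least, at -0.06 ± 0.15. Of the cytoskeleton genes, Anln, a septin-binding protein of myelin, had a log2 fold change of -0.37 ± 0.15, and Ppp1r14a, an inhibitor of myosin phosphatase, one of 0.09 ± 0.18.

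**Figure D3:**
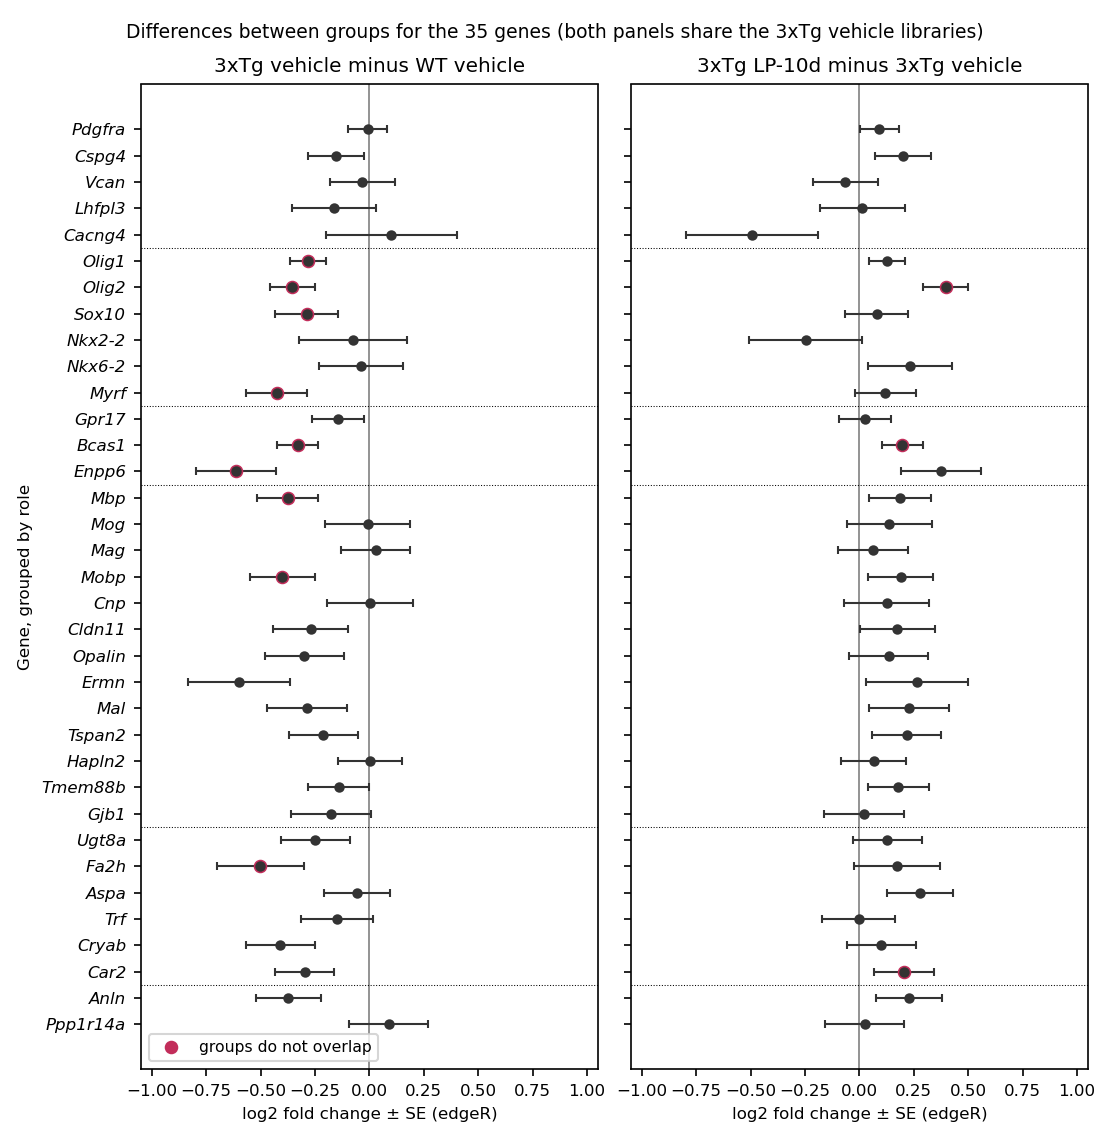
edgeR log2 fold change with its standard error (points and bars) for the 35 genes by role, 3xTg vehicle minus WT vehicle on the left and 3xTg LP-10d minus 3xTg vehicle on the right; red rims mark genes whose groups do not overlap (9 on the left, 3 on the right). Both panels use the same 3xTg vehicle libraries, so a low value there moves them in opposite directions.

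WT vehicle replicate 3 and 3xTg vehicle replicate 2 were left out together as an alternative. The median over the 35 was then -0.25, with 33 genes lower and 10 lower at an unadjusted p under 0.05 (5.97% of all genes), and 0 were called. In 23 of the 35 the remaining libraries did not overlap, against 20.5% of all genes, since pairs of libraries separate more easily. Without 3xTg vehicle replicate 3, the lowest library for most of the genes, the median was -0.12, with 25 lower and 4 at an unadjusted p under 0.05. These 4 (11.4% of the 35) stood against 3.67% of all genes lower at such a p and 8.73% in either direction. The same 9 genes remained separate between the groups without it, against 10.7% of all genes lower. With WT vehicle replicate 2 left out, the library with the highest choroid plexus sum, the median was -0.19, with 27 lower. In that edgeR fit 9 of the 35 (25.7%) were lower at an unadjusted p under 0.05, against 9.37% of all genes.

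The second comparison, 3xTg LP-10d against 3xTg vehicle, asks how the model differed after treatment. Of the 35 genes, 31 were higher in the treated group, with a median log2 fold change of 0.13 (1.10-fold). Over all genes the median was 0.00, with 49.9% higher and 50.1% lower. edgeR called 0 of the 35 and 0.00% of all genes at an adjusted p of 0.05, and every adjusted p of the 35 was 1.00. At an unadjusted p under 0.05, 1 of the 35 was higher (Olig2) and 0 were lower, against 0.948% of all genes higher and 1.95% lower. These values take no account of the replicate numbers, which may pair the libraries of these groups. A fit of these 6 libraries with the replicate number as a block was added after the data were seen. In it, 8 of the 35 (22.9%) were higher at such a p, against 3.54% of all genes. They were Bcas1, Car2, Cspg4, Mal, Mbp, Mobp, Olig2 and Tmem88b, none was called, and the smallest edgeR adjusted p of the 35 was 0.359. The same fit without the block had 1 of the 35, against 6.01% of all genes in either direction. The block in the fit of all 9 libraries also had 1, against 3.10%. The groups did not overlap in 3 of the 35 (8.57%), Olig2, Bcas1 and Car2, against 5.82% of all genes higher, and 0 were separate in the lower direction, against 5.81%. DESeq2, which called 0.00302% of all genes, and limma-voom also called 0 of the 35. Each had 1 higher at an unadjusted p under 0.05 (2.86%), against 0.396% of all genes with DESeq2 and 0.931% with limma-voom. This comparison shares the 3xTg vehicle libraries with the first, so that a higher value here and a lower value there are not independent.

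Olig2 was at 40.9, 35.2 and 34.7 CPM in 3xTg LP-10d and, as given above, at 29.6, 26.2 and 28.5 CPM in 3xTg vehicle. The log2 fold change was 0.40 ± 0.10, or 1.32-fold (edgeR adjusted p = 1.00). All treated libraries lay above all 3xTg vehicle libraries, and over all alternatives the log2 fold change stayed between 0.32 and 0.44. The treated libraries overlapped the WT vehicle range of 33.6 to 39.9 CPM.

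Bcas1 was at 133, 109 and 110 CPM after LP-10d, with the nearest 3xTg vehicle library at 109 CPM. The log2 fold change was 0.20 ± 0.10 (edgeR adjusted p = 1.00), and without 3xTg LP-10d replicate 1 it was 0.10. Enpp6 was at 9.76, 6.05 and 8.40 CPM after LP-10d, so that replicate 2 lay within the range of 3xTg vehicle and the other 2 lay above it. Its log2 fold change was 0.37 ± 0.18, and 0.22 without replicate 1. Car2 was at 235, 206 and 203 CPM after LP-10d and at 202, 191 and 164 CPM in 3xTg vehicle, with a log2 fold change of 0.20 ± 0.14 and nearest libraries that were almost equal.

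Aspa was at 14.7, 10.3 and 12.2 CPM after LP-10d and at 10.6, 10.9 and 9.20 CPM in 3xTg vehicle. Its log2 fold change was 0.28 ± 0.15, and without 3xTg LP-10d replicate 1, its highest library, it was 0.14. Cspg4 was at 47.9, 49.9 and 41.7 CPM after LP-10d and at 39.8, 44.0 and 37.5 CPM in 3xTg vehicle, a log2 fold change of 0.20 ± 0.13 with overlapping groups. Pdgfra was at 60.3, 54.4 and 50.3 CPM after LP-10d, at 0.09 ± 0.09, and Gpr17 at 51.1, 61.2 and 54.9 CPM, at 0.03 ± 0.12, on the log2 scale. Cacng4 was lower, at 20.6, 20.8 and 20.1 CPM, a log2 fold change of -0.50 ± 0.30 that became 0.01 without 3xTg vehicle replicate 2.

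All 13 genes of the myelin membrane and junctions were higher after LP-10d, with a median log2 fold change of 0.17 and a range from 0.02 (Gjb1) to 0.27 (Ermn). Without 3xTg LP-10d replicate 1, 7 of the 13 were higher and 6 lower, with a median of 0.01, and without 3xTg vehicle replicate 3, 11 were higher, with a median of 0.07. Mbp was at 4274, 3287 and 3251 CPM in the treated libraries. Replicate 1 was above every 3xTg vehicle library and the other 2 lay within the 3xTg vehicle range, and the log2 fold change was 0.19 ± 0.14. Mog showed the same pattern, at 72.9, 49.9 and 54.7 CPM (0.14 ± 0.19), as did Mobp at 1076, 839 and 852 CPM (0.19 ± 0.15). Myrf was at 142, 105 and 106 CPM, a log2 fold change of 0.12 ± 0.14. In all 4, replicate 1 was high and replicates 2 and 3 were close to each other.

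Within the treated group 1 library stood apart. 3xTg LP-10d replicate 1 lay above the mean of the other treated libraries in 32 of the 35 genes, by as much as 0.60 for Ppp1r14a, 0.56 for Fa2h and 0.54 for Ermn on the log2 scale. The exceptions were Nkx2-2, Gpr17 and Lhfpl3. Without it the median log2 fold change against 3xTg vehicle was 0.03, with 20 of the 35 higher, and Olig2, Bcas1 and Car2 were still separate from 3xTg vehicle. These 3 of 35 (8.57%) stood against 10.1% of all genes separate and higher, and Ppp1r14a was separate in the lower direction, against 9.22%. Without 3xTg vehicle replicate 3 the median was 0.07, with 26 higher. Without 3xTg LP-10d replicate 2 or 3xTg vehicle replicate 1 it was 0.23 or 0.21.

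**Figure D4:**
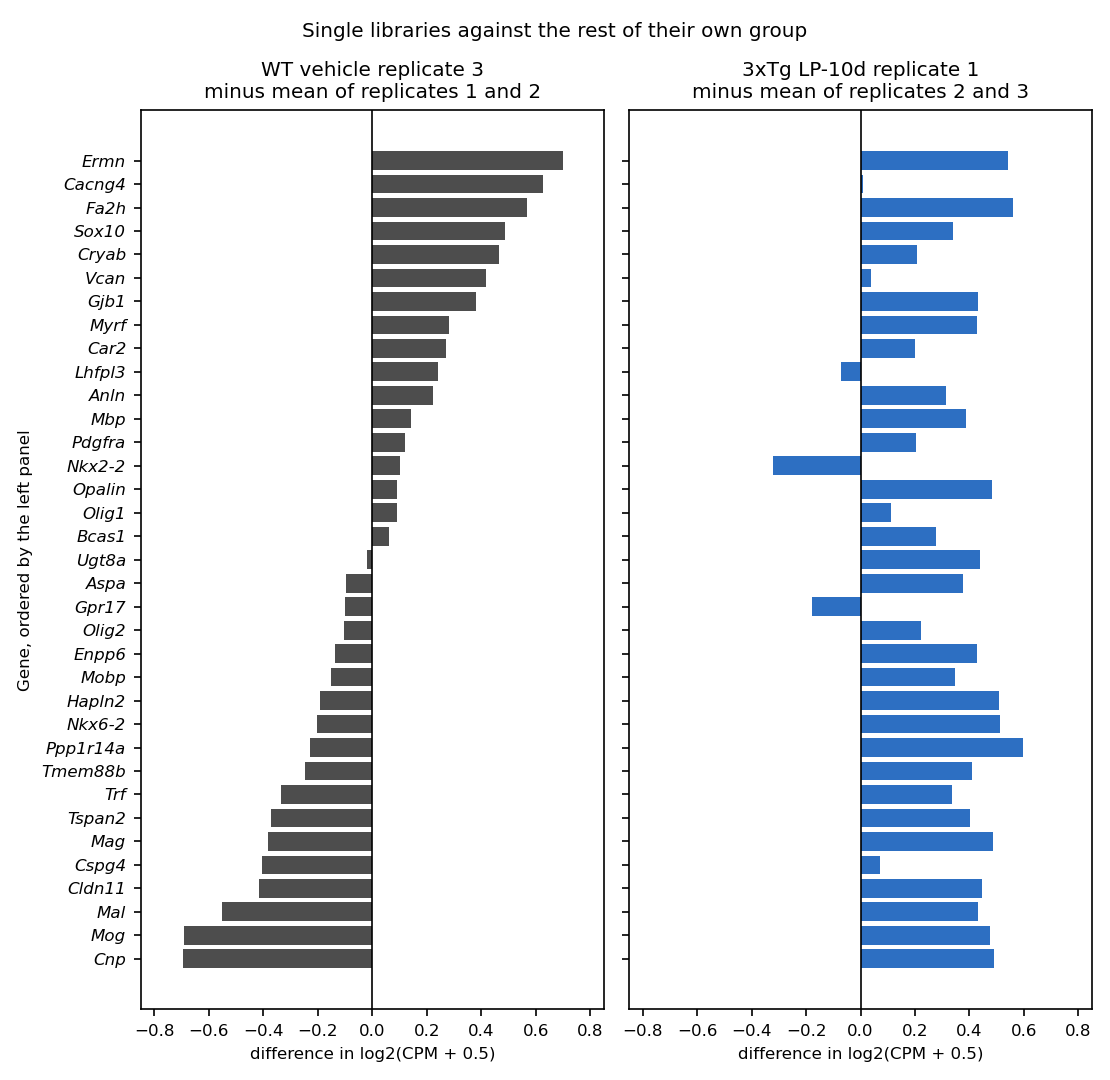
Difference in log2(CPM + 0.5) between a single library and the mean of the other 2 libraries of its own group, for WT vehicle replicate 3 (left) and 3xTg LP-10d replicate 1 (right), with genes ordered by the left panel. WT vehicle replicate 3 runs from 0.70 for Ermn to -0.70 for Cnp, whereas 3xTg LP-10d replicate 1 is above its group for 32 of the 35 genes.

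WT vehicle replicate 3 differed from its own group in another way. It was above the mean of WT vehicle replicates 1 and 2 for 17 of the 35 genes and below for 18, and the spread was wide. Ermn was higher there by 0.70, Cacng4 by 0.63, Fa2h by 0.57, Sox10 by 0.49 and Cryab by 0.47 on the log2 scale, and Cnp, Mog, Mal and Cldn11 had differences of -0.70, -0.69, -0.55 and -0.42. The SD of this difference over the 35 genes was 0.37, against 0.12 to 0.27 for the other 8 libraries. Myelin membrane genes stood on both sides. Over 11502 genes with a mean of at least 5 CPM, the difference had a Spearman correlation of 0.32 with transcript length. Over the 35 it was 0.17, as a description. In the other 8 libraries the same correlation ran from -0.27 to 0.23 over the 11502 genes. Over the 35 it ran there from -0.47 (WT vehicle replicate 2) to 0.50 (3xTg vehicle replicate 2). The parts of transcript length and of the tissue markers in the split were not tested.

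The third comparison, 3xTg LP-10d against WT vehicle, asks how far treated mice differ from wild type. Of the 35 genes, 23 were lower in the treated group, with a median log2 fold change of -0.12, against 50.5% of all genes lower, 49.5% higher and a median of 0.00. edgeR called 0 of the 35 and 0.00% of all genes, with 0 of the 35 at an unadjusted p under 0.05, against 4.67% of all genes lower and 4.08% higher, and the smallest adjusted p was 0.569. DESeq2 called 0 of the 35 and 0.251% of all genes. At an unadjusted p under 0.05 it had 1 of the 35 lower (2.86%), against 2.42% of all genes. The groups did not overlap, lower, in 2 of the 35 (5.71%), Olig1 and Cacng4, against 6.89% of all genes, and higher in 0, against 7.49%. With all 9 libraries these shares were near or below the background.

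Myrf had the smallest p here, from 132, 140 and 165 CPM in WT vehicle to 142, 105 and 106 CPM after LP-10d. The log2 fold change was -0.31 ± 0.14 (edgeR adjusted p = 0.569), and treated replicate 1 lay within the WT vehicle range while the other 2 lay below it. Olig1, at 151, 148 and 132 CPM after LP-10d, stayed below every WT vehicle library, with a log2 fold change of -0.16 ± 0.08. Its level was thus between those of WT vehicle and 3xTg vehicle, overlapping the latter. Cryab, at 86.6, 81.3 and 69.0 CPM, had a log2 fold change of -0.31 ± 0.16, and of -0.14 without WT vehicle replicate 3.

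Fa2h was at 65.3, 42.8 and 45.6 CPM and Sox10 at 86.6, 67.5 and 69.2 CPM after LP-10d. Their log2 fold changes against WT vehicle were -0.33 ± 0.20 and -0.21 ± 0.14, and -0.12 and -0.03 without WT vehicle replicate 3. Aspa was higher than in WT vehicle (9.88, 11.9 and 10.1 CPM), by 0.22 ± 0.15, or by 0.08 without treated replicate 1. Olig2 (0.04 ± 0.10), Pdgfra (0.08 ± 0.09) and Mog (0.13 ± 0.19) had small log2 fold changes with overlapping groups. Mbp (-0.19 ± 0.14), Gpr17 (-0.12 ± 0.12) and Enpp6 (-0.24 ± 0.18) were lower, also with overlapping groups. Without treated replicate 1 the median over the 35 was -0.19, with 32 lower. In that case 14 of the 35 were separate from WT vehicle and lower, against 9.82% of all genes. At an unadjusted edgeR p under 0.05, 4 of the 35 (11.4%) were then lower, against 2.31% of all genes. They were Bcas1, Fa2h, Mbp and Myrf, so the shares depended on this 1 library.

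**Figure D5:**
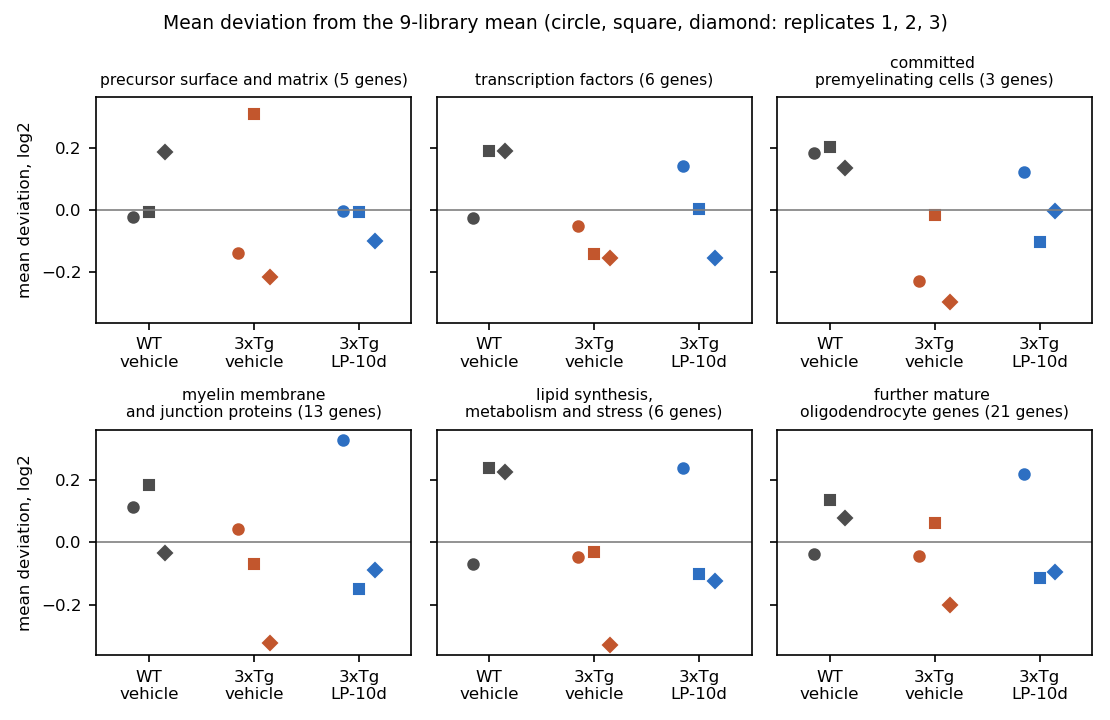
Mean deviation of log2(CPM + 0.5) from the 9-library mean, averaged over the genes of 5 of the roles and over 21 further mature oligodendrocyte genes, for each library (circle, square and diamond are replicates 1, 2 and 3). Genes of committed cells show 3xTg vehicle (-0.29 to -0.02) wholly below WT vehicle (0.14 to 0.20), and the myelin panel shows 3xTg LP-10d replicate 1 at 0.33 above the other treated libraries.

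Other genes of the lineage, from lists that do not include the 35, were read in the same fit. Of 20 further mature oligodendrocyte genes tested, 15 were lower in 3xTg vehicle than in WT vehicle, with a median log2 fold change of -0.18. With edgeR 0 passed the adjusted threshold and 3 (15.0%) were lower at an unadjusted p under 0.05, against 7.08% of all genes. They were S1pr5, a sphingosine phosphate receptor of mature cells, at -0.32 ± 0.12, Nfasc, which anchors paranodes, at -0.20 ± 0.09, and Evi2a at -0.32 ± 0.15. After LP-10d, 14 of the 20 were higher than in 3xTg vehicle, with a median of 0.08. The smallest p-values there belonged to Zfp488 (0.37 ± 0.18), Plekhb1 (0.17 ± 0.10) and Adamts4 (0.20 ± 0.13).

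Of 10 further precursor genes, 6 were lower in 3xTg vehicle, with a median of -0.12. Cspg5, a proteoglycan that neurons and astrocytes also make, was higher, at 322, 334 and 254 CPM in the WT libraries and at 380, 385 and 445 CPM in 3xTg vehicle (log2 fold change 0.41 ± 0.12, edgeR adjusted p = 0.206). Tnr, a matrix glycoprotein of precursors and interneurons, was lower, with a log2 fold change of -0.37 ± 0.13. Of 7 genes of myelin lipid metabolism, 5 were lower, and Degs1 and Cers2, which make ceramide, had log2 fold changes of -0.34 ± 0.13 and -0.36 ± 0.14.

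Of 19 signals and receptors that steer the lineage, 13 were lower in 3xTg vehicle, with a median of -0.03, near that of all genes. Notch1, whose activity holds precursors undifferentiated, had a log2 fold change of -0.24 ± 0.09. Its target Hes5, at 0.89 to 5.42 CPM over the libraries, had one of 0.94 ± 0.39, and the axonal signal Nrg1 one of 0.78 ± 0.28. The highest Nrg1 level was 12 CPM, in 3xTg vehicle replicate 2, and other libraries ran from 4.0 to 6.83 CPM. Erbb3, a neuregulin receptor, had a log2 fold change of -0.31 ± 0.14. Over these 4 lists edgeR, DESeq2 and limma-voom each called 0 genes in each of the 3 comparisons. At an unadjusted p under 0.05 edgeR had 10 of 56 for 3xTg vehicle against WT vehicle, 0 for 3xTg LP-10d against 3xTg vehicle and 4 for 3xTg LP-10d against WT vehicle. These were 17.9%, 0.00% and 7.14% of the 56, against 14.1%, 2.90% and 8.75% of all genes. DESeq2 had 11 (19.6%), 0 and 5 (8.93%) in the same order, against 7.16%, 1.46% and 4.30% of all genes, run without the filter. limma-voom had 11 (19.6%), 0 and 4 (7.14%), against 13.4%, 2.59% and 8.47%.

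Astrocyte markers, for another glial type, were also lower in 3xTg vehicle in 4 of 6 cases, with a median log2 fold change of -0.13, and higher after LP-10d in 5 of 6, with a median of 0.10. Their summed level was 2322 to 2688 CPM in WT vehicle, 2255 to 2340 in 3xTg vehicle and 2501 to 2586 in 3xTg LP-10d. The 5 microglia markers had medians of 0.02 and -0.10 in the same comparisons and summed to 241 to 307, 275 to 314 and 264 to 278 CPM. The 5 neuron markers had medians of -0.05 and -0.01. All markers of these lists had counts in every library. The neocortex markers were higher in 3xTg vehicle in 6 of 6 cases, with a median of 0.50, and 3xTg vehicle replicate 3, the lowest library for most of the oligodendrocyte genes, had the highest neocortex sum, 419 CPM. The part of dissection in the oligodendrocyte values was not tested.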

How the data were processed

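Hippocampal RNA from 9 libraries (3 WT vehicle, 3 3xTg vehicle, 3 3xTg LP-10d) was analysed. Groups and replicate numbers came from the titles. Whether replicates came from separate animals is not stated, and p-values then measure only the spread between these samples, which may be technical. Per the labels' protocols, 300 ng of RNA entered an MGI library kit. The authors deposited raw counts per gene and FPKM, which scales counts by library total and transcript length. The submitters' processing notes name the build mm10. The aligner, counter and strand setting: not given in the sources used here. GENCODE M21 held 33051 of the genes, 32793 of them at the deposited position, all 35 members included.

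The main test was edgeR 4.0.16 in R 4.3.3 on the counts: filterByExpr (17396 genes), TMM scaling, group means fitted to all 9 libraries at once, quasi-likelihood test (legacy off), Benjamini-Hochberg adjustment over all genes and a threshold of 0.05. Standard errors are the log2 fold change divided by the root of F. CPM use TMM-scaled library sizes. Total counts were 16582086 to 19170969 per library. An exact permutation test of 3 against 3 cannot go below p = 0.1. In data simulated for 3xTg vehicle against WT vehicle, the test recovered 28.4% of genes changed 1.5-fold, 70.1% changed 2-fold and 93.9% changed 4-fold. The median difference of the 35 genes there was smaller (0.863-fold), so a lack of calls does not show that they are unchanged. The members, lists, roles and naming rule were chosen with earlier results of these data known. The rule gives values in every library for the 6 members with the smallest edgeR p in each comparison and for Pdgfra, Olig2, Gpr17, Enpp6, Myrf, Mbp and Mog, and names up to 4 genes of each other list by the same order. Members given per library outside this rule, and the promoters printed, were chosen after their values were seen. Of 58 genes of the other lists, 57 matched by symbol.

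Alternatives were DESeq2 1.42.0, DESeq2 size factors, limma-voom (limma 3.58.1), the legacy test, no filter, a fit of the 6 libraries compared, a replicate block, limma-trend on log2(FPKM + 0.1) and log2(FPKM + 1), and leaving out each library. Added after seeing the data were a fit leaving out both 3xTg vehicle replicate 2 and WT vehicle replicate 3, and the block in the 6-library fit. Deviations from the group means of same-numbered libraries correlated at 0.17, 0.10 and 0.38 between 3xTg vehicle and 3xTg LP-10d, and at -0.17, -0.09 and -0.12 between WT vehicle and 3xTg vehicle. Differently numbered libraries correlated at -0.30 to 0.18 between 3xTg vehicle and 3xTg LP-10d, and at -0.29 to 0.39 between WT vehicle and 3xTg LP-10d. By a rule of every same-numbered pair above 0.1 the numbers pair 3xTg vehicle with 3xTg LP-10d only. This is a weak hint from the data, since some differently numbered libraries correlated as much.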

Additional observations from a re-analysis of the deposited data

How the results depend on the processing

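No alternative called any of the 35 genes in any comparison, and the median log2 fold change over them kept its sign under every alternative. When 1 library was left out, this median ran from -0.29 to -0.12 for 3xTg vehicle against WT vehicle, from 0.03 to 0.23 for 3xTg LP-10d against 3xTg vehicle, and from -0.19 to -0.06 for 3xTg LP-10d against WT vehicle. The count of all genes called moved more. For 3xTg vehicle against WT vehicle it was 1 with edgeR, 340 with DESeq2, 3 without the filter, 3 and 2 on FPKM with pseudocounts of 0.1 and 1, and 0 to 11 when 1 library was left out. For 3xTg LP-10d against 3xTg vehicle it was 0 with edgeR and 1 with DESeq2. For 3xTg LP-10d against WT vehicle it was 0 with edgeR, 46 with DESeq2, and 0 to 2 when 1 library was left out. The cause was not tested. With the replicate block in the fit of 9 libraries the counts were 1, 0 and 0 and the medians over the 35 were -0.21, 0.13 and -0.12. With the replicate block in the fit of the 6 libraries compared, 1 gene was called between 3xTg LP-10d and 3xTg vehicle, which was not among the 35, whose median was 0.13 with 8 at an unadjusted p under 0.05 (22.9%, against 8.23% of all genes in either direction). The block in the 6-library fit was run for that comparison only, and the block in the fit of 9 libraries changed no count of calls.

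Under at least 1 alternative the log2 fold change changed sign for 11 of the 35 in 3xTg vehicle against WT vehicle, 16 in 3xTg LP-10d against 3xTg vehicle and 13 in 3xTg LP-10d against WT vehicle. Among the genes given by library, Mog in 3xTg vehicle against WT vehicle was 0.0231 with limma-voom, 0.0126 with the replicate block, 0.0651 and 0.062 on FPKM with pseudocounts of 0.1 and 1, and -0.213 to 0.102 when 1 library was left out. Pdgfra in the same comparison was 0.0336 and 0.0288 on FPKM with the same pseudocounts, and -0.0438 to 0.0257 when 1 library was left out. With WT vehicle replicate 3 and 3xTg vehicle replicate 2 both left out, Cacng4 in 3xTg LP-10d against 3xTg vehicle was 0.0152 and Mog in 3xTg LP-10d against WT vehicle was -0.0679. When 1 library was left out, Cacng4, Gpr17, Mog and Myrf in 3xTg LP-10d against 3xTg vehicle ran from -0.709 to 0.0102, -0.0454 to 0.169, -0.0397 to 0.247 and -0.0378 to 0.211, and Mog and Olig2 in 3xTg LP-10d against WT vehicle from -0.0678 to 0.247 and -0.0376 to 0.125.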
